A study of Mus musculus with 8 samples.

Results

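The genes described here carry the symbols of mitochondrial ribosomal proteins. They were chosen by symbol, as every row of the deposited counts named Mrpl or Mrps followed by a digit, without pseudogenes. The rule found 78 of 13387 genes, of which 49 carry a large subunit symbol (Mrpl) and 29 a small subunit symbol (Mrps). These are all 78 protein-coding genes of that name in the GENCODE vM21 annotation, and all 78 passed the filter on low counts. Counts, shares and medians by subunit follow the symbol. By protein, Mrps18a and Mrps30 belong to the large subunit, and Mrps36 is now known as a part of another complex. Bulk RNA-Seq had been performed on wild-type C57BL/6 murine megakaryocytes (MKs), the marrow cells that release platelets, in 4 libraries of MKs cultured alone and 4 of MKs cocultured with mesenchymal stromal cells (MSCs). The MSCs were wild-type marrow cells sorted as CD45-Ter119-CD31-CD51+CD140a+, each culture was kept for 18 hours, and a library came from a pool of 5 wells. The labels describe the sequenced cells as MKs taken out of the culture and freed of platelets, whereas the paper describes platelets. The legend of the study counts mice as replicates, but nothing ties a library to an animal, so the p-values measure the spread between these libraries only.

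Mitochondria keep a small genome of their own, and the mitochondrial ribosome translates the few messenger RNAs made from it into core subunits of the respiratory chain and of ATP synthase. Its ribosomal RNAs come from mitochondrial DNA, but every one of its proteins is encoded in the nucleus, made in the cytosol and imported. Some of these proteins descend from the bacterial ribosome and others exist only in mitochondria. The study asked how MKs and their mitochondria change next to MSCs, which makes the level of this machinery in the 2 culture conditions the question here.

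Libraries held between 4939874 and 12523616 counts, and no member was at 0 in any of them. The lowest count of a member was 2 and the highest 3049, both in replicate 3 of the cocultures. That library stood apart, with 10735 genes detected against 12406 to 13193 in the others, so calls are given with all 8 libraries and again without it. The cell makeup of the libraries also moved with the condition. MK and platelet markers summed to between 1912 and 2228 CPM (counts divided by TMM-adjusted library sizes) in MKs cultured alone and to between 1724 and 2387 in cocultures, and 0 of 13 were called changed. MSC markers summed to 14.5 to 19.4 CPM in MKs cultured alone and to 1155 to 3819 in cocultures (6 of 7 tested rose). Macrophage markers summed to 151 to 226 and 923 to 1394 CPM (8 of 9 tested rose), and neutrophil markers to 81841 to 82876 and 4155 to 9871 CPM (10 of 10 fell). B cell markers summed to 854 to 902 and 61.1 to 225 CPM (4 of 8 fell), and erythroid markers to 10.8 to 21.2 and 1.9 to 8.0 CPM (0 of 2 tested were called). Without coculture replicate 3, 2 of 13 MK and platelet markers were called lower, and at the adjusted p alone 5 were lower and 0 higher. In that fit 8 of 8 MSC and 10 of 10 macrophage markers tested were called higher. Called lower were 10 of 10 neutrophil, 5 of 8 B cell and 2 of 3 erythroid markers tested. No marker of these lists was at 0 in every library of a group. The part of these other cells in the results below was not tested, and in bulk libraries fewer cells of a type and less RNA per cell cannot be told apart.

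Mitochondrial ribosomal protein genes took up a larger share of the counts in every coculture than in any library of MKs cultured alone. The share was 0.283%, 0.337%, 0.323% and 0.302% in the 4 libraries of MKs cultured alone and 0.40%, 0.451%, 0.594% and 0.417% in the 4 cocultures. Replicate 3 was the highest coculture, and the lowest of the other 3 still lay above all MKs cultured alone. Wilson 95% intervals, which cover counting error only, ran from 0.279% to 0.288% for the lowest library and from 0.590% to 0.598% for the highest. Large subunit genes held 0.169% to 0.212% of the counts in MKs cultured alone and 0.247% to 0.376% in cocultures, and small subunit genes held 0.114% to 0.125% and 0.153% to 0.218%. The ranges of the 2 groups did not overlap for either subunit.

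**Figure D1:**
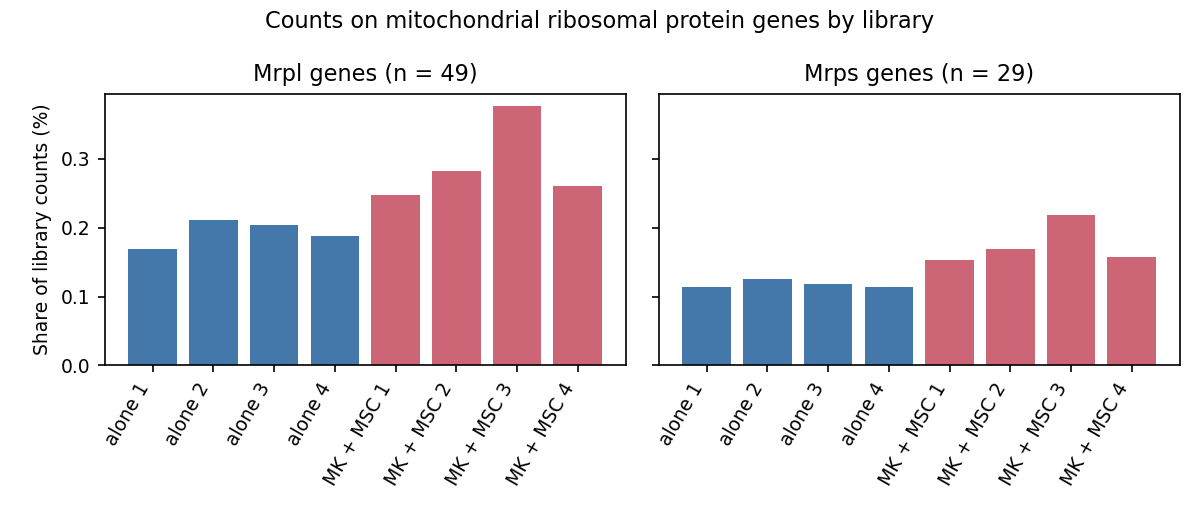
Share of each library's counts (%) on the 49 Mrpl genes (left) and the 29 Mrps genes (right), with 1 bar per library, blue for MKs cultured alone and red for MKs cocultured with MSCs. For both subunits every coculture stands above every library of MKs cultured alone, and coculture replicate 3 is the highest, at 0.376% and 0.218%.

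Most members had a higher fitted level in cocultures, but few were called changed. With all 8 libraries, 8 of 49 Mrpl genes and 3 of 29 Mrps genes were called higher by edgeR at a fold change of at least 2 and an adjusted p of at most 0.05, and 0 were called lower. These 11 genes are 14.1% of the members, and 13.2% of all 11722 genes tested were called higher and 7.31% lower, so the share of members called higher was near the background. The count moved when single libraries were left out. The share of all genes called in those fits is not given here, so a move particular to the members was not tested. Leaving out any 1 of the MKs cultured alone gave 0 (replicate 1 or 2) or 1 (replicate 3 or 4) Mrpl gene and 1 Mrps gene, leaving out coculture replicate 1 gave 13 and 6, and leaving out coculture replicate 2 gave 5 and 1. At the adjusted p alone, 10 Mrpl and 3 Mrps genes rose with all 8 libraries, or 16.7% of the members against 14.3% of all genes, and 0 fell against 8.75%. The log2 fold change was positive for 44 of 49 Mrpl and 26 of 29 Mrps genes. Its median was 0.66 for Mrpl and 0.91 for Mrps genes, beside 0.03 over all genes tested. The 4 cocultures lay above all MKs cultured alone, with no overlap, for 22 Mrpl and 14 Mrps genes together, and below them for 1 of each. Over all genes these shares were 19.3% and 21.1%.

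Without coculture replicate 3 the shift was smaller for both subunits, while more members passed the adjusted p. The median log2 fold change was then 0.40 for both subunits and 0.03 over all 12267 genes tested. At the adjusted p, 21 Mrpl and 12 Mrps genes rose, 42.3% of the members against 29.2% of all genes, and 1 Mrpl gene fell, against 25.9% of all genes. With the fold change cutoff, 6 Mrpl and 2 Mrps genes were called higher and 0 lower, while 20.6% and 15.4% of all genes were called. Of these 8 genes 7 were also called with all 8 libraries. The groups did not overlap for 40 members that were higher and 4 that were lower in cocultures, with 30.7% and 25.4% of all genes as the background. Most members that rose did so by less than 2-fold.

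**Figure D2:**
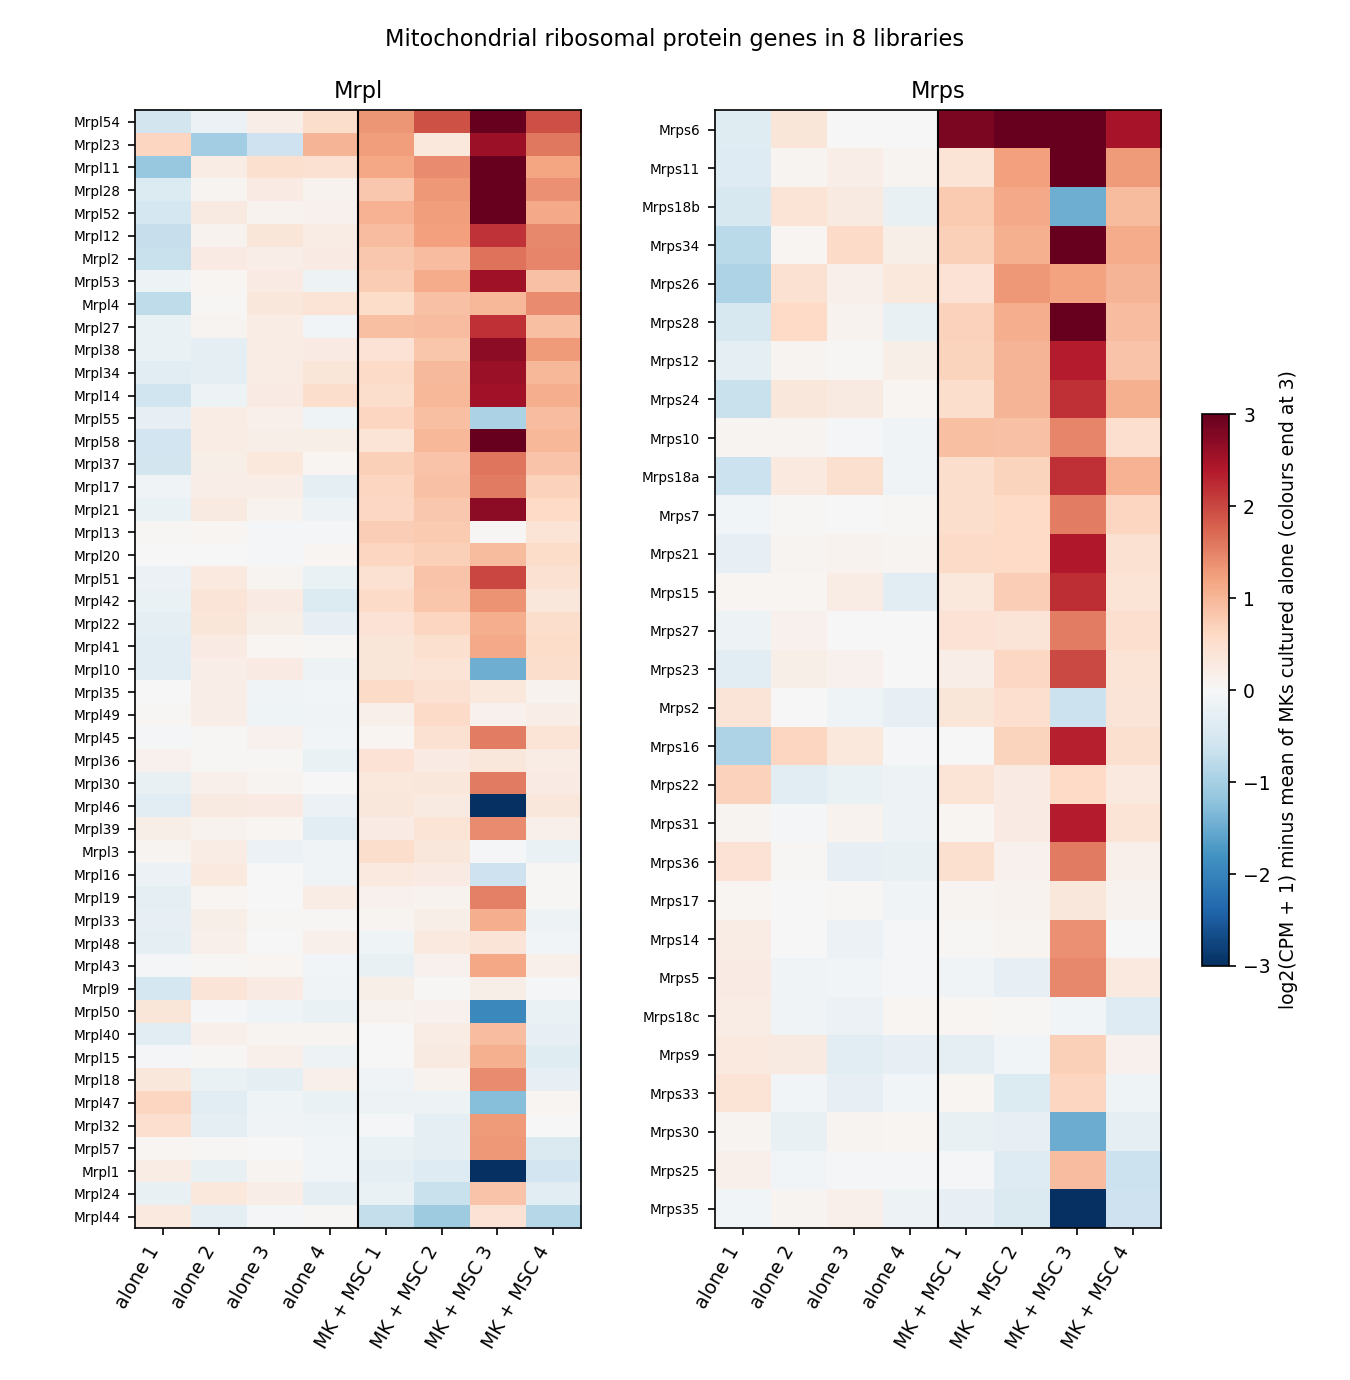
Level of the 49 Mrpl genes (left) and 29 Mrps genes (right) in each of the 8 libraries, as log2(CPM + 1) minus the mean of the 4 libraries of MKs cultured alone, ordered by the log2 fold change without coculture replicate 3; colors end at 3 and -3. Mrps6 is high in all 4 cocultures, whereas coculture replicate 3 is the highest coculture for 58 of 78 members and the lowest for 13.

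Mrps6 (chr16:92058270-92112227, plus strand, GRCm38), the mitochondrial homologue of the bacterial small subunit protein S6, had the largest rise of the members. Its level was 13.5, 23.0, 17.5 and 17.7 CPM in MKs cultured alone and 129.9, 156, 157 and 103 CPM in cocultures. The groups were far apart, and coculture replicate 3 lay close to replicate 2. The fitted level was 7.59-fold higher in cocultures (log2 fold change 2.92, SE 0.26, adjusted p = 0.00010) and 7.05-fold higher without replicate 3 (adjusted p = 1.1e-08). It was the only member called higher in all 13 alternative fits run on single genes, 5 with other settings and 8 with a library left out. The gene spans Slc5a3, which encodes a sodium-coupled myo-inositol transporter and shares 159 exon bases with Mrps6 on the same strand. Gm49711, a protein-coding gene that is not in the counts, shares 305 exon bases with Mrps6 on that strand. Slc5a3 was itself called higher in both fits (log2 fold change 3.45, adjusted p = 0.027, and 3.89, adjusted p = 3.4e-08, without replicate 3). Slc5a3 held 46, 30, 42 and 36 counts in MKs cultured alone and 1237, 555, 27 and 374 counts in cocultures. Mrps6 held 61, 223, 158 and 109 counts in MKs cultured alone and 1370, 1195, 1505 and 591 counts in cocultures. How reads in the shared exon bases were divided between these genes is not given in the sources used here, so the part of such reads in the Mrps6 counts was not tested.

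Among large subunit genes the rise was largest in Mrpl54 (chr10:81264713-81266934, minus strand), a protein found only in mitochondrial ribosomes. Its level was 7.06, 9.38, 12.6 and 15.9 CPM in MKs cultured alone and 28.6, 43.0, 195 and 44.1 CPM in cocultures. All cocultures were higher, and replicate 3 was 5.05 times the mean of the other cocultures. The log2 fold change was 2.78 (SE 0.66, adjusted p = 0.016) with all 8 libraries and 1.74 (SE 0.27, adjusted p = 3.7e-05) without replicate 3. Mrpl12 (chr11:120484613-120489065, plus strand) encodes the stalk protein that recruits translation factors to the ribosome. It held 13.5, 24.2, 29.4 and 26.7 CPM in MKs cultured alone and 43.4, 54.3, 105 and 62.8 CPM in cocultures, again without overlap. Its log2 fold change was 1.5 (SE 0.37, adjusted p = 0.020) and 1.15 without replicate 3 (SE 0.24, adjusted p = 0.00067). Mrpl54 and Mrpl12 were each called higher in 10 of the 13 alternative fits.

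Mrpl28, a homologue of bacterial L28, and Mrpl52, found only in mitochondria, rose in both fits. Mrpl28 (chr17:26123500-26126613, plus strand) was at 21.2, 30.2, 34.3 and 30.7 CPM in MKs cultured alone and at 51.4, 72.7, 284 and 76.3 CPM in cocultures (log2 fold change 2.06, adjusted p = 0.026, and 1.17, adjusted p = 0.00017, without replicate 3). Mrpl52 (chr14:54426909-54429756, plus strand) was at 6.40, 11.9, 10.4 and 10.6 CPM and at 20.8, 24.4, 145 and 22.4 CPM (log2 fold change 2.43, adjusted p = 0.038, and 1.16, adjusted p = 0.00086). In both genes replicates 1, 2 and 4 of the cocultures lay above MKs cultured alone, with replicate 3 at least 4.26 times their mean. The SD of these 3 replicates was 13.5 CPM for Mrpl28 and 1.80 CPM for Mrpl52. Mrpl2, the homologue of the bacterial core protein L2, was the other large subunit gene called in both fits, with a log2 fold change of 1.25 and, without replicate 3, 1.05. Of the 13 alternative fits, 9 called Mrpl28, 7 called Mrpl52 and 5 called Mrpl2 higher.

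Mrpl27, whose bacterial counterpart reaches toward the peptidyl transferase center, Mrpl53 and Mrpl37 were called with all 8 libraries and fell below 2-fold without replicate 3. Mrpl27 had 14.8, 18.3, 20.2 and 16.1 CPM in MKs cultured alone and 33.1, 33.7, 82.2 and 33.0 CPM in cocultures. Its 3 cocultures other than replicate 3 differed by less than 1 CPM (33.3 ± 0.418, SD, n = 3) and lay above every library of MKs cultured alone. Without replicate 3 the log2 fold change was 0.91 for Mrpl27 (adjusted p = 0.0011), 0.93 for Mrpl53 (adjusted p = 0.0016) and 0.77 for Mrpl37 (adjusted p = 0.0061). Mrpl53, with a median transcript length of 695 bases, shares 695 exon bases on the same strand with the protein-coding Gm42688. Gm42688 held 3, 14, 18 and 2 counts in MKs cultured alone and 12, 9, 0 and 0 in cocultures. The part of shared reads in the Mrpl53 counts was not tested. Mrpl11, a protein of the stalk base, was called only without replicate 3. It had 2.43, 7.83, 9.54 and 9.44 CPM in MKs cultured alone and 16.0, 19.4, 104 and 16.1 CPM in cocultures (log2 fold change 2.40, adjusted p = 0.053, and 1.18, adjusted p = 0.0073, without replicate 3). Its groups did not overlap, and the library of MKs cultured alone with the lowest level was replicate 1. Mrpl27 was called in 6 of the 13 alternative fits, Mrpl53 in 5, Mrpl11 in 3 and Mrpl37 in 2.

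Of the small subunit genes other than Mrps6, Mrps11 and Mrps12 were called higher. Mrps12 (chr7:28739641-28741820, minus strand), the homologue of the bacterial decoding protein S12, was at 18.1, 23.7, 23.3 and 25.7 CPM in MKs cultured alone and at 36.6, 46.5, 119 and 41.8 CPM in cocultures (log2 fold change 1.43, adjusted p = 0.039, and 0.85, adjusted p = 0.0017, without replicate 3). Mrps11 (chr7:78783119-78792989, plus strand) was at 6.84, 9.79, 10.8 and 9.76 CPM and at 12.4, 22.9, 91.8 and 23.8 CPM (log2 fold change 2.02, adjusted p = 0.048, and 1.04, adjusted p = 0.0046). Neither gene overlapped between the groups. Each was called in 5 of the 13 alternative fits, and neither was called with the replicate block, with the gene length correction or with any library of MKs cultured alone left out. The Mrps11 gene shares 173 exon bases with Mrpl46, which lies on the opposite strand. Mrpl46 was at 22.8 to 23.9 CPM in coculture replicates 1, 2 and 4 and at 0.21 CPM, or 2 counts, in replicate 3, the library in which Mrps11 was highest. Whether strand was used in counting is not given in the sources used here, so reads of such pairs cannot be told apart. Of the 78 members 33 share exon bases with another annotated gene, 22 of them with a gene in the counts and 4 of these on the same strand.

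**Figure D3:**
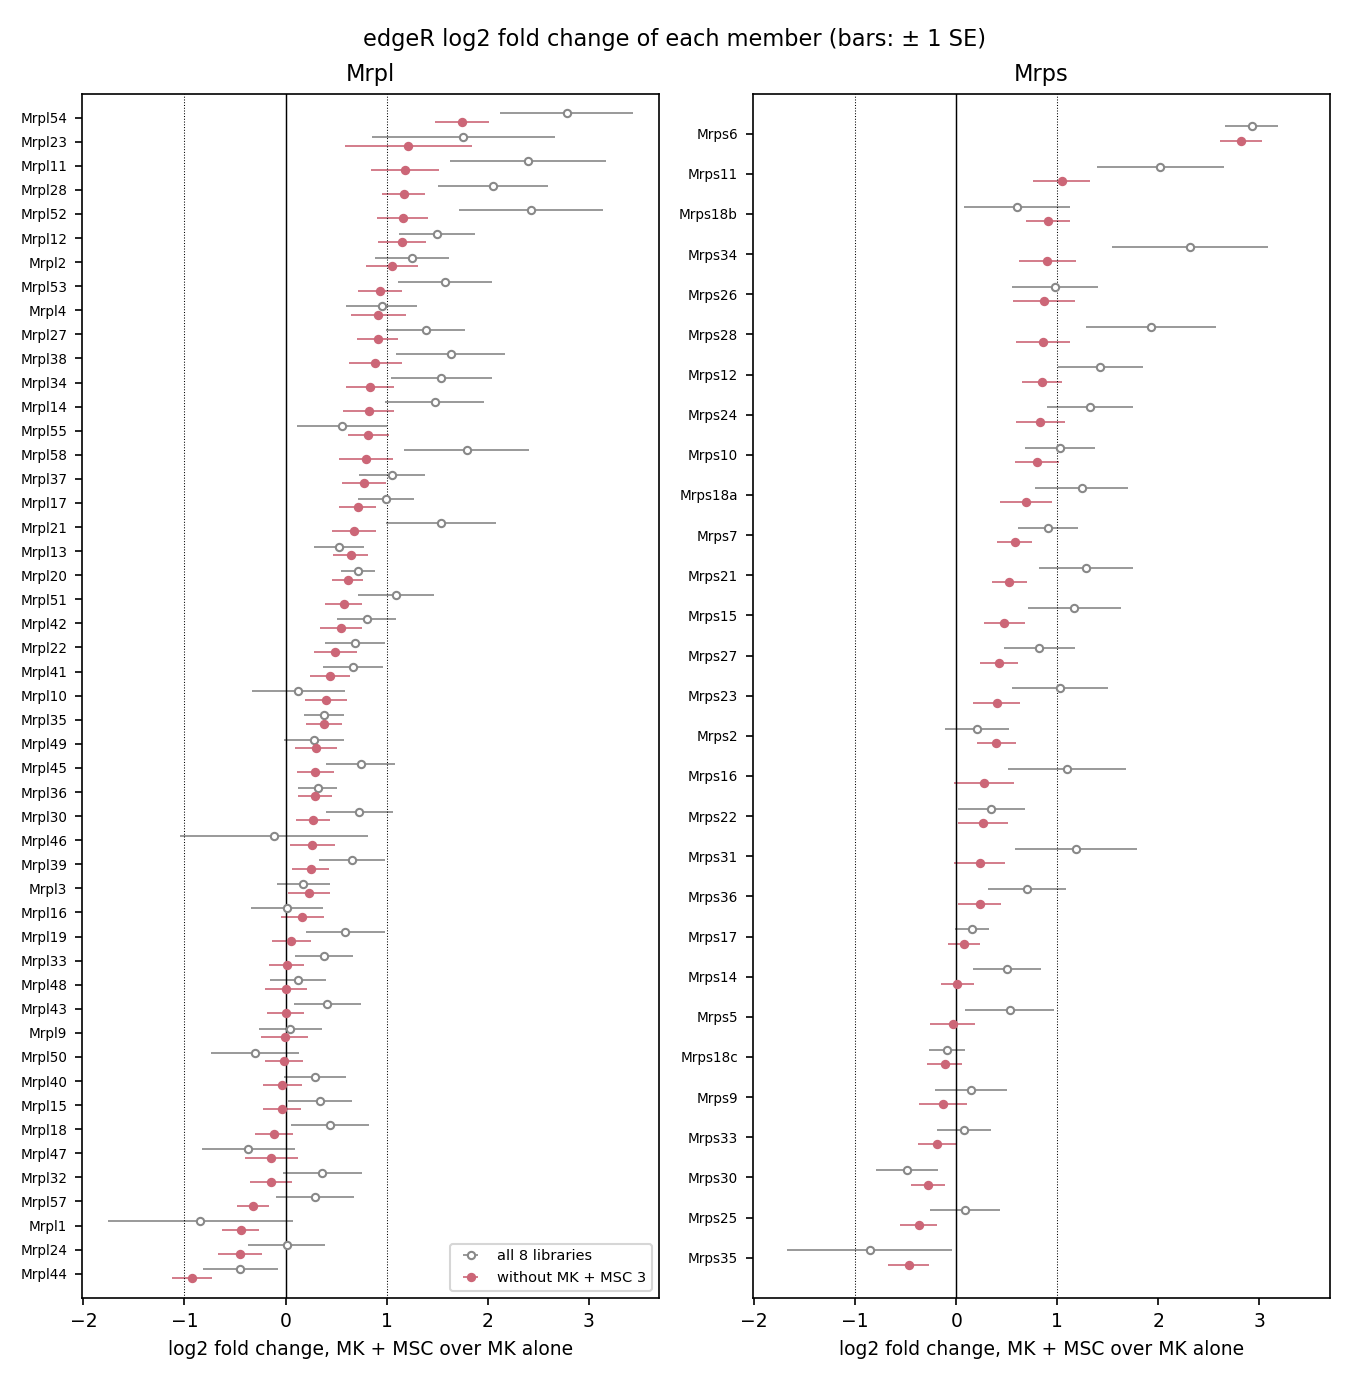
edgeR log2 fold change of cocultures over MKs cultured alone for each Mrpl gene (left) and Mrps gene (right), with bars of 1 SE, in gray with all 8 libraries and in red without coculture replicate 3; dotted lines mark a 2-fold change. Most points lie right of 0 in both fits (70 and 60 of 78), the bars are shorter without replicate 3, and Mrpl44 is the lowest of the red Mrpl points at -0.93.

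Mrpl44, which encodes a large subunit protein with a ribonuclease III fold, went the other way. It had 73.9, 49.6, 58.2 and 61.8 CPM in MKs cultured alone and 36.2, 28.3, 81.3 and 32.6 CPM in cocultures. Replicate 3 was the highest of the 8 libraries and the other cocultures were the lowest 3. The log2 fold change was -0.45 with all 8 libraries (SE 0.37, adjusted p = 0.42) and -0.93 without replicate 3 (SE 0.20, adjusted p = 0.00077), the only fall of a member past the adjusted p. Mrpl1, Mrpl57 and Mrps35 also lay below all MKs cultured alone in coculture replicates 1, 2 and 4 but did not pass the test. Mrps35 was at 28.0 to 34.9 CPM in MKs cultured alone, at 26.1, 22.7 and 19.8 CPM in coculture replicates 1, 2 and 4, and at 0.52 CPM in replicate 3 (log2 fold change -0.86, adjusted p = 0.50, and -0.47, adjusted p = 0.058, without replicate 3).

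The members that share the Mrps18 name sit in different places of the mitochondrial ribosome and had different values. Mrps18c, the counterpart of bacterial S18, was at 225, 181, 172 and 203 CPM in MKs cultured alone and at 202, 198, 184 and 149 CPM in cocultures. The groups overlapped (log2 fold change -0.09, SE 0.18, adjusted p = 0.75, and -0.11, adjusted p = 0.60, without replicate 3). Mrps18b, a small subunit protein, was at 23.0, 43.2, 38.9 and 27.7 CPM and at 56.4, 71.4, 11.1 and 63.1 CPM, with coculture replicate 3 below every other library (log2 fold change 0.60, adjusted p = 0.45, and 0.91, adjusted p = 0.0022, without it). Mrps18a, which despite its symbol is placed in the large subunit, had a log2 fold change of 1.24 (adjusted p = 0.086) and, without replicate 3, 0.69 (adjusted p = 0.033). Mrps30, the other large subunit protein with a small subunit symbol, was at 70.9 to 87.8 CPM in MKs cultured alone and at 71.6, 70.3, 28.8 and 67.1 CPM in cocultures (log2 fold change -0.49, adjusted p = 0.28, and -0.28, adjusted p = 0.17).

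Other members with a defined role had smaller or less certain differences. Mrpl58, a peptidyl-tRNA hydrolase that frees stalled ribosomes, was at 7.50, 13.7, 13.2 and 13.3 CPM in MKs cultured alone and at 15.7, 24.2, 102 and 24.1 CPM in cocultures (log2 fold change 1.79, adjusted p = 0.069, and 0.80, adjusted p = 0.017, without replicate 3). Mrpl36 was at 55.3 to 69.5 CPM and at 74.1 to 86.7 CPM, with no overlap between the groups (log2 fold change 0.32, adjusted p = 0.26, and 0.29, adjusted p = 0.15, without replicate 3). Mrps36, now known as a part of the 2-oxoglutarate dehydrogenase complex of the tricarboxylic acid cycle, was at 29.3 to 47.2 CPM and at 38.0 to 104 CPM (log2 fold change 0.70, adjusted p = 0.23, and 0.23, adjusted p = 0.37, without replicate 3). Mrpl20, the homologue of bacterial L20, rose by less than 2-fold with libraries close together in each group. It was at 91.6, 89.8, 88.2 and 95.3 CPM in MKs cultured alone and at 142, 150.1, 176 and 133 CPM in cocultures, a log2 fold change of 0.72 (SE 0.17, adjusted p = 0.015) and, without replicate 3, of 0.62 (adjusted p = 0.0029).

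**Figure D4:**
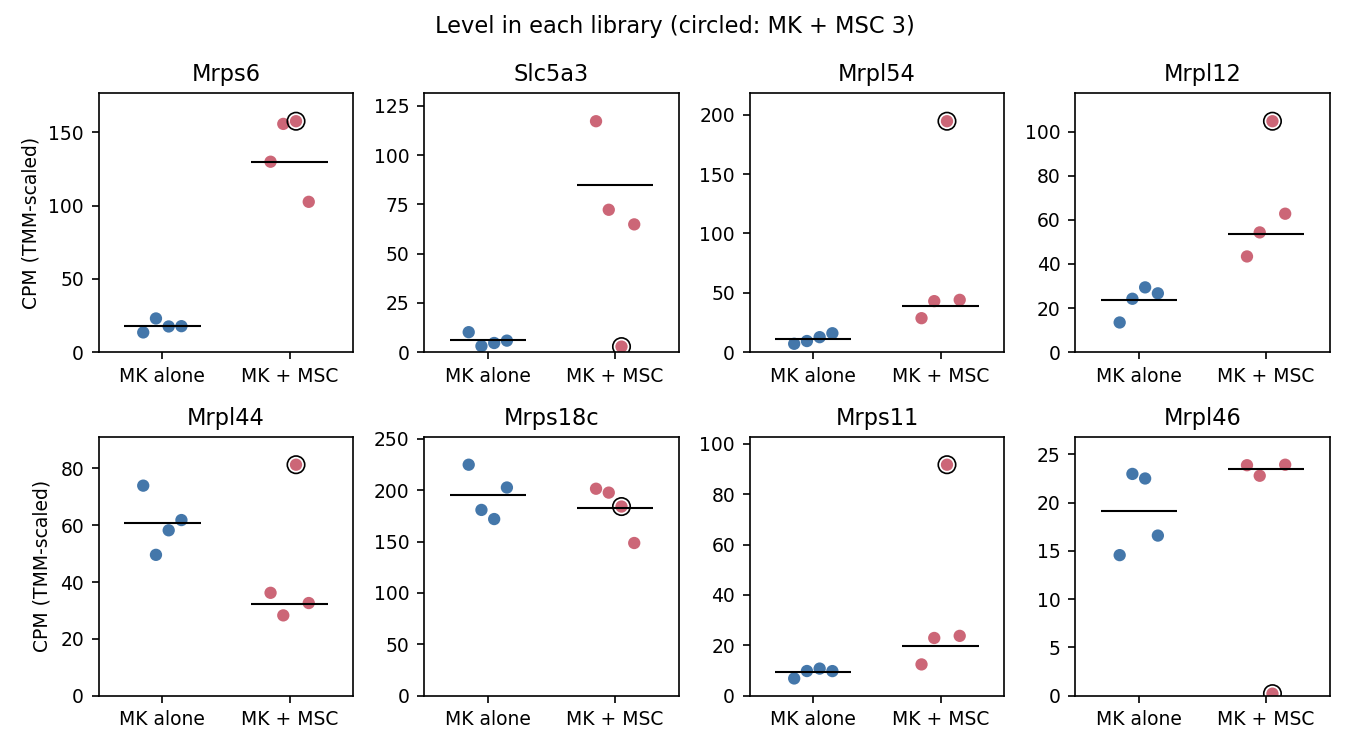
TMM-scaled CPM of 8 genes in each library, blue for MKs cultured alone and red for cocultures, with coculture replicate 3 circled; lines mark the mean of MKs cultured alone and of coculture replicates 1, 2 and 4. Mrps6 is high in all cocultures, Slc5a3 and Mrpl46 are far lower in the circled coculture (2.82 and 0.21 CPM) than in the other cocultures, Mrpl44 is low in the other 3, and the groups overlap for Mrps18c.

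Members ranged widely in level. Scaled to the median transcript length of each gene, the mean over the 8 libraries ran from 4.84 CPM per kilobase in Mrps26 to 296 in Mrps18c. Mrps35 (5.83) was the other small subunit gene at the low end and Mrps33 (151) at the high end. Among large subunit genes the lowest were Mrpl47 (4.88) and Mrpl23 (7.63), the counterpart of a protein at the tunnel exit, and the highest were Mrpl33 (264) and Mrpl20 (244). The order at the low end differed between the groups and with replicate 3. In MKs cultured alone Mrpl23 (3.51), Mrpl11 (3.79) and Mrpl58 (4.73) lay below Mrpl47 (5.50), and over the 7 libraries without replicate 3 Mrps5 (4.77) lay below Mrps35 (6.64). Except for Mrpl20, and for Mrps26 without replicate 3 (log2 fold change 0.87, adjusted p = 0.024), the lowest 2 and highest 2 of each subunit over 8 libraries did not pass the test in either fit. Mrpl23 was at 3.53, 0.41, 0.89 and 4.88 CPM in MKs cultured alone and at 5.97, 2.61, 16.3 and 7.63 CPM in cocultures, so its groups overlapped. Replicates 2 and 3 of MKs cultured alone held 4 and 8 counts, near the floor of 3 counts, which is 0.24 to 0.61 CPM. Mrpl47 (log2 fold change -0.37, adjusted p = 0.61), Mrpl33 (0.38, adjusted p = 0.38) and Mrps33 (0.08, adjusted p = 0.87) did not pass the test with all 8 libraries.

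Coculture replicate 3 set most of the spread within the cocultures. It was at least 2-fold above the mean of the other cocultures for 41 of 78 members and at most 0.5 of it for 10, with ratios from 0.009 to 7.36 and a median of 2.16. These ratios depend on the scaling, since its TMM factor of 0.7645, against 1.0597 to 1.1181 in the other cocultures, raises its CPM relative to theirs. The highest ratio was that of Mrps34, and the lowest were those of Mrpl1 and Mrpl46, with 3 and 2 counts. The median coefficient of variation of a member was 16.7% in MKs cultured alone, 52.2% in the 4 cocultures and 13.6% in coculture replicates 1, 2 and 4. Replicate 1 of MKs cultured alone was the lowest of its group for 39 of 78 members and the highest for 21.

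Members of either class had positive medians. The 46 members classed as homologues of bacterial ribosomal proteins had a median log2 fold change of 0.70, and 0.49 without coculture replicate 3. The 31 classed as specific to the mitochondrial ribosome, which include Mrps18a, Mrps18b and Mrpl58, had 0.67 and 0.30. At the adjusted p, 9 and 4 of them rose with all 8 libraries, or 19.6% and 12.9% against 14.3% of all genes, and 21 and 12 without replicate 3, or 45.7% and 38.7% against 29.2%. Across the 78 members, the log2 fold change was lower in genes with longer transcripts (Spearman's rho -0.38, and -0.42 without replicate 3). This describes genes of the same libraries, whose median transcript lengths ran from 440.5 to 6073 bases.

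The promoter sequences of 4 members are shown for the largest rise (Mrps6), for 2 further members called higher in both fits (Mrpl52 and Mrpl28) and for the member that fell without replicate 3 (Mrpl44). Each run is the 120 bases before the RefSeq start, which can differ from the GENCODE start given above (GRCm38.p6, plus strand, chr16:92058216-92058335, chr14:54426789-54426908, chr17:26123383-26123502 and chr1:79775898-79776017). Capitals mark a match to CCGGAA, the core that ETS factors such as GABP bind, or to CGCANGCG, the core bound by nuclear respiratory factor 1 (NRF1), on either strand.
Mrps6: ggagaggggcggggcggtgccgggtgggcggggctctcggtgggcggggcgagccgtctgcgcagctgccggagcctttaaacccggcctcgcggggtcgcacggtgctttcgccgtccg
Mrpl52: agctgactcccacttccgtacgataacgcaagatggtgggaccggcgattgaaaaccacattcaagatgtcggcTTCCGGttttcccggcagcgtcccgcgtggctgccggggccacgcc
Mrpl28: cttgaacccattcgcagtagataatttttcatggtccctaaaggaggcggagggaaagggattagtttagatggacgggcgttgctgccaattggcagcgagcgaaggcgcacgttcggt
Mrpl44: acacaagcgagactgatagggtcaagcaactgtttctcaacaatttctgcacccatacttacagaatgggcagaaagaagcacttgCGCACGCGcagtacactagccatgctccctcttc

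Both motifs were searched on both strands in the 250 bases before each RefSeq start, where by their letters they cannot overlap each other, and 69 of 78 members had a promoter in the table (75 promoters). CGCANGCG was present in 22.7% of the members' promoters, in 13.9% of those of all genes tested and in 6.76% of all 32851 promoters. CCGGAA was present in 37.3%, 22.1% and 12%. By subunit, CGCANGCG was in 27.1% of Mrpl and 14.8% of Mrps promoters, and CCGGAA in 39.6% and 33.3%. A match describes these letters only, and it was found in members that rose (CCGGAA in Mrpl52, Mrpl53, Mrpl27 and Mrpl2, CGCANGCG in Mrpl12) as well as in Mrpl44, which holds CGCANGCG. Neither motif was found in the promoters of Mrps6, Mrpl28, Mrpl37, Mrpl11, Mrps11 and Mrps12, which were also called higher, and Mrpl54 had no promoter in the table.

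The same libraries were examined for the other genes of mitochondrial translation. Of the 5 subunit genes with another symbol, 0 were called with all 8 libraries, and 3 rose at the adjusted p without replicate 3, namely Dap3 (log2 fold change 0.93), Gadd45gip1 (0.79) and Chchd1 (0.47). Over all genes, 29.2% rose at the adjusted p in that fit. Of 13 translation factors, 2 (15.4%) were called higher in both fits, beside 13.2% of all genes with all 8 libraries and 20.6% without replicate 3. Slirp, an RNA-binding partner of Lrpprc that stabilizes mitochondrial messenger RNAs, was at 43.5, 49.9, 49.9 and 51.4 CPM in MKs cultured alone and at 135, 144, 312 and 95.4 CPM in cocultures (log2 fold change 1.82, adjusted p = 0.0069, and 1.34, adjusted p = 1.0e-05, without replicate 3). Every coculture lay above every library of MKs cultured alone. Tsfm, the exchange factor of the elongation factor Tufm, rose by 1.60 on the log2 scale (adjusted p = 0.037, and 1.3, adjusted p = 0.0012, without replicate 3).

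Of 27 assembly factors, 1 (3.7%) was called higher with all 8 libraries, Mpv17l2 (log2 fold change 1.96, adjusted p = 0.033), beside 13.2% of all genes. Without replicate 3, Mpv17l2 (1.32) and Rcc1l (1.0) were called higher, and Ngrn, which acts on the large ribosomal RNA, was called lower (-1.07, adjusted p = 0.0033). Over all genes, 20.6% were called higher and 15.4% lower in that fit. Of 20 mitochondrial aminoacyl-tRNA synthetase and amidotransferase genes and of 4 genes of mitochondrial DNA transcription, 0 were called in either fit, and at the adjusted p alone Fars2 and the RNA polymerase Polrmt rose without replicate 3. The 13 messenger RNAs of mitochondrial DNA, which this ribosome translates, were not called in either fit, with a median log2 fold change of 0.32 and, without replicate 3, of -0.07. At the adjusted p alone 1 of them, mt-Co1, was lower without replicate 3 (-0.74, adjusted p = 0.041). Over all genes, 29.2% rose and 25.9% fell at the adjusted p alone in that fit.

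The 77 proteins of the cytosolic ribosome serve as a second ribosome in the same libraries. Their median log2 fold change was 0.76 with all 8 libraries, between those of Mrpl and Mrps genes, and -0.11 without replicate 3, where those of Mrpl and Mrps genes were 0.40. Of the 77 genes, 4 (5.19%) were called higher with all 8 libraries and 2 (2.6%) without replicate 3, against 13.2% and 20.6% of all genes. At the adjusted p alone 7 (9.09%) rose and 18 fell without replicate 3, against 29.2% and 25.9% of all genes. The summed level of the 77 genes was 83344 CPM in coculture replicate 3 and between 20578 and 27098 CPM in the other 7 libraries. The difference between the ribosomes was not tested, since genes of a list are not replicates.

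**Figure D5:**
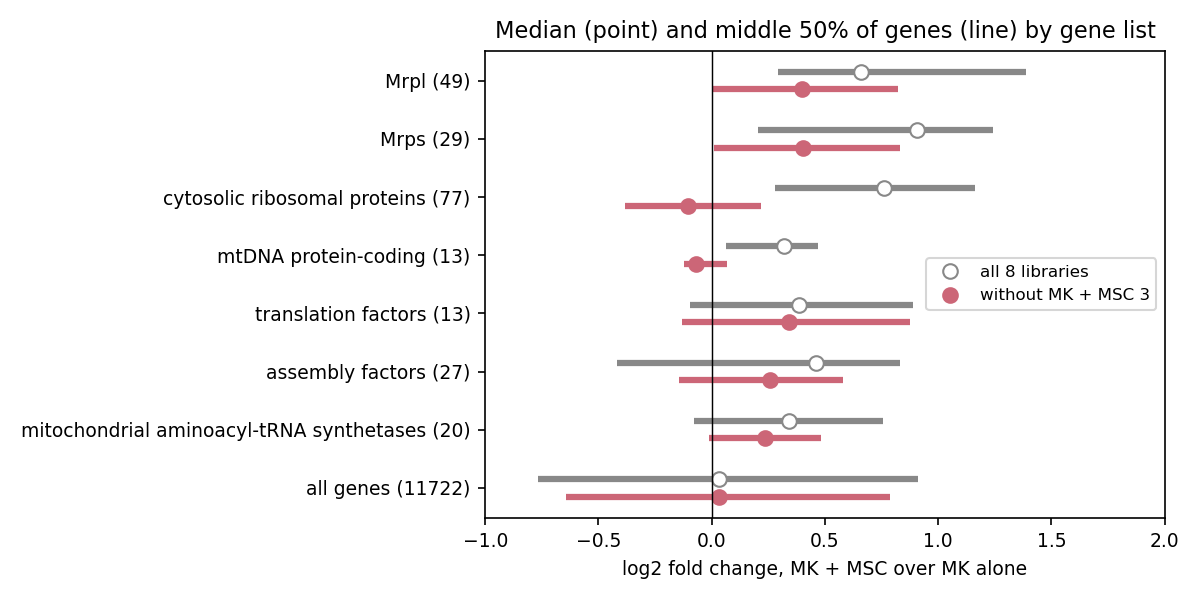
Median log2 fold change of cocultures over MKs cultured alone (points) and the range of the middle 50% of genes (lines) for each gene list, in gray with all 8 libraries and in red without coculture replicate 3; the number of genes tested with all 8 libraries is in parentheses. Without replicate 3 the medians of Mrpl and Mrps genes are 0.40, that of cytosolic ribosomal proteins is -0.11 and that of all genes is 0.03.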

How the data were processed

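The authors deposited 1 table of raw counts per gene, made, per the methods and labels, from SMART-Seq HT libraries by kallisto on mm10, with reads filtered by fastp. The counts are whole numbers and not normalized. How transcripts were summed and whether strand was used are not given in the sources used here. Groups came from the sample titles. The batch in the study's DESeq2 design could not be assigned to libraries and was left out.

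Counts were filtered with filterByExpr, scaled by TMM and tested over all genes with the robust quasi-likelihood F test of edgeR 4.0.16 (R 4.3.3), with Benjamini-Hochberg adjustment over all genes tested. A called gene had a fold change of 2 or more, an adjusted p no higher than 0.05 and 1 CPM or more on average in either group. DESeq2 1.42.0, other scalings, filters, a replicate block, a gene length correction and each library left out were alternatives. Of genes changed in simulated counts of 4 against 4 libraries, 51 of 99 changed 2-fold and 96 of 100 changed 4-fold passed, with 4 of 11429 unchanged genes. Apart from the changed genes, the simulated libraries shared a mean profile. They had a reduced spread between libraries (dispersion) and held none like coculture replicate 3, so these rates do not describe the real libraries. Positions and lengths (median transcript length) came from GENCODE vM21, promoters from RefSeq (GRCm38.p6).

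The members and lists were chosen with earlier results of these data known. Genes described singly were up to 6 called members per subunit and direction, up to 3 called only without coculture replicate 3, the 2 highest and 2 lowest by level per length, and members with a fixed role. Mrpl1, Mrpl2, Mrpl37, Mrpl44, Mrpl46, Mrpl57, Mrps5, Mrps34, Slc5a3 and the other genes of mitochondrial translation were named after their values were seen.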

Additional observations from a re-analysis of the deposited data

Results flagged for a closer look

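The levels of 24 members and the share of counts of each subunit were searched, within each group of 4, for a library that lay away from the rest. Such a library was found in 10 of 52 groups, and 7 of the 10 libraries were replicate 3 of the cocultures. Chance gives about 1 in 20, or 2.6 groups, where groups are independent and chosen beforehand. Here the groups share libraries and the members were partly chosen by these same values, so the comparison is no test. Values are log2(CPM + 1). Coculture replicate 3 lay above the other cocultures for Mrpl52 (7.18), Mrpl27 (6.38) and Mrpl11 (6.71). It lay below them for Mrpl47 (2.94), Mrps35 (0.607), Mrps18b (3.6) and Mrps30 (4.9). In MKs cultured alone, replicate 1 lay below the others for Mrpl11 (1.78) and Mrpl58 (3.09), and replicate 2 lay below them for Mrps30 (6.17).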

How the results depend on the processing

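With all 8 libraries, no alternative called a member lower, and the median log2 fold change stayed positive for both subunits in every alternative, from 0.40 to 0.787 for Mrpl and from 0.402 to 1.022 for Mrps genes, both lowest without coculture replicate 3. The number of calls moved more. Apart from leaving out coculture replicate 3, the share of all genes called in the alternatives is not given here. The counts of calls in this section therefore have no background beside them. Mrpl and Mrps genes called higher were 13 and 7 with DESeq2, 15 and 7 when scaled to MK and platelet markers, 13 and 6 with at least 10 counts in every library, 4 and 1 with the gene length correction, and 1 and 1 with that correction and the replicate block together. With a library left out, they ranged from 0 to 13 and from 1 to 6.

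Same-numbered libraries shared deviations from their group means with r of 0.369, 0.02, 0.15 and 0.028 for replicates 1 to 4, across genes. Between different numbers r ran from -0.282 to 0.099, and not every library correlated best with its own number. These values cannot decide whether same-numbered libraries were paired. The replicate block gave 3 Mrpl and 1 Mrps gene called higher, 13 and 8 with DESeq2 and the block, and 8 and 4 without coculture replicate 3.

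Alternatives for the fit without coculture replicate 3 were chosen after seeing the data. There Mrpl and Mrps genes called higher were 10 and 4 by library size only (medians 0.529 and 0.541), 13 and 9 when scaled to MK and platelet markers (0.592 and 0.601), and 4 and 1 with the gene length correction, which also called 1 Mrpl gene lower. With another library left out, they ranged from 3 to 9 and from 1 to 5, with 0 to 1 Mrpl gene lower. Scaling to the markers moved the median of all genes to 0.135 with all 8 libraries and to 0.225 without replicate 3, and the length correction to 0.273 with all 8.

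Over the members described singly and 13 alternatives each, 247 values kept their direction and side of the threshold, 48 passed it no longer, 10 passed it newly and 7 changed sign. With the gene length correction the log2 fold changes of Mrpl33, Mrps33 and Mrpl36 became -0.16, -0.315 and -0.001. With a library left out, that of Mrps33 ranged from -0.186 (without coculture replicate 3) to 0.259 and was -0.022 without MK cultured alone replicate 3, and that of Mrps18c ranged from -0.167 to 0.04 (without coculture replicate 4). When scaled to the markers, that of Mrps18c was 0.018. The causes of these moves were not tested. Counts as low as 2 in coculture replicate 3, exon bases shared with other genes and an unknown batch limit single members, and the makeup of cells in a library cannot be told apart from expression per cell.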
